A study of Mus musculus with 2 samples.

Results

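Prok2, Tgfa and Clcf1 encode 3 secreted factors of the suprachiasmatic nucleus (SCN), the master circadian pacemaker of the mammalian brain. They are described here with the genes of their receptors, Prokr2, Egfr and Cntfr. These 6 genes were chosen by name from the 24229 genes of the deposited expression table. All 6 were listed, and 5 of them reached the mean normalised count of 50 that was set for a measured gene, as did 14343 genes in all. Clcf1 did not reach it. The study compared SCN tissue of mice entrained to a normal T-cycle (NT) with that of mice entrained to a short one (ST), a T-cycle being a light-dark schedule with a set period. Both groups were wild-type C57BL/6 mice aged 68 days after birth, 8 entrained per group, which had spent 7 days in constant darkness before they were split and were recorded in darkness after 4 weeks of entrainment. Tissue was collected 4 h into the circadian day once 5 days of darkness had passed, and polyadenylated RNA was sequenced from 1 library per group. Neither the T-cycle periods nor how many mice went into a library could be taken from the labels.

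The SCN imposes its rhythm on behaviour partly through diffusible signals, and these 3 factors are known as candidates for signals that hold back locomotor activity at certain times of day. Prokineticin 2, the product of Prok2, is a small secreted protein that acts on the G protein-coupled receptor Prokr2, which is found in SCN target areas and in the nucleus itself. Transforming growth factor alpha, from Tgfa, is released from the cell surface and binds the epidermal growth factor receptor tyrosine kinase, Egfr. Cardiotrophin-like cytokine factor 1, from Clcf1, is a secreted cytokine that binds Cntfr, which then engages the signalling chains gp130 (Il6st) and Lifr. Prok2 is also known as a direct target of the clock activators CLOCK and BMAL1, which bind the E-box motif CACGTG.

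In mm9 coordinates, the build named in the submitters' processing notes, Prok2 (ENSMUSG00000030069) lies on the minus strand of chromosome 6 from 99661344 to 99676347. Tgfa (ENSMUSG00000029999) lies on the plus strand of the same chromosome from 86145415 to 86225151, and Clcf1 (ENSMUSG00000040663) on the plus strand of chromosome 19 from 4214238 to 4223490. Of the receptors, Prokr2 (ENSMUSG00000050558) spans 132163469 to 132211183 on the minus strand of chromosome 2, and Cntfr (ENSMUSG00000028444) spans 41604529 to 41644121 on the minus strand of chromosome 4. Egfr (ENSMUSG00000020122) spans 16652206 to 16818161 on the plus strand of chromosome 11 and has the longest annotated transcript structure of the 6, with up to 28 exons against 4 for Prok2, Prokr2 and Clcf1, 6 for Tgfa and 10 for Cntfr in the GENCODE vM1 annotation.

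Among the 5 genes with a promoter window at hand only Prok2 carried the E-box CACGTG there, so its sequence is shown. The window searched was that of the RefSeq promoter table (GRCm38.p6), from 250 bases before to 50 bases after each annotated start, on both strands, which for this palindrome are the same. Of the 6 genes, all but Clcf1 were found there, and 0 of the other 4 held the motif. It was present in 7.15% of all 32851 windows. The 250 bases before the Prok2 start are at chr6:99726393-99726642 on the minus strand in GRCm38.p6, with the E-box in capitals at chr6:99726522-99726527, its first base at position -135 from the start:
Prok2: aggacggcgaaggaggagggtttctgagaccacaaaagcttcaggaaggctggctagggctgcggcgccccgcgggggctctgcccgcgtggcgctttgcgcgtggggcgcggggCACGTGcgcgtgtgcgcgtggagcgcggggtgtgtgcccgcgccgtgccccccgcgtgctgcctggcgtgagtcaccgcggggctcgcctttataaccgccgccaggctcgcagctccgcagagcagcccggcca

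The same 250 bases matched mm9 at 1 place, chromosome 6 from 99676387 to 99676636, which puts the E-box at 99676516 to 99676521. The stretch is rich in G and C, at 73.6%, and 94.7% of the promoter windows had a lower share over the same 250 bases. A variant of the motif, CACGTT or its complement AACGTG, was absent from the Prok2 window. Among the 5 genes only Cntfr held it, in 3 of its 6 windows. These 3 windows overlap and hold the same site, so they are not separate occurrences. The variant was present in 4.68% of all windows, and in at least 1 window of 5.44% of the 27025 genes. Over the same genes, 8.09% held CACGTG in at least 1 window. For comparison, 11 clock-controlled genes were listed because they are known for E-boxes, so a count of the motif among them is no test. Of these, 9 were in the promoter table, 2 held the variant and 5 held CACGTG. Their E-boxes nearest to the start are printed with 12 bases on each side to set them beside that of Prok2, all in GRCm38.p6 and 5′ to 3′ on the gene's strand:
Prok2 at chr6:99726510-99726539: tggggcgcggggCACGTGcgcgtgtgcgcg
Per1 at chr11:69098771-69098800: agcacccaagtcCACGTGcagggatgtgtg
Tef at chr15:81802534-81802563: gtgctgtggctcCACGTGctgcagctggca
Ciart at chr3:95882255-95882284: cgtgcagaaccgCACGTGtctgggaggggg
Bhlhe41 at chr6:145865556-145865585: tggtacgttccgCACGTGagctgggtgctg
Cry1 at chr10:85185097-85185126: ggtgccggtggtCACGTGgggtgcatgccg

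All 3 receptors and 2 of the ligands were readily detected, whereas Clcf1 was near the lower end of the range. Levels between genes are compared in RPKM, the deposited read number scaled to gene length and to library size. Cntfr was the most abundant, with an RPKM of 28.5 in the NT library (95% counting interval 27.2 to 29.8) and 26.5 in the ST library (25.1 to 27.9). Tgfa followed with 24.6 in NT (23.6 to 25.6) and 22.4 in ST (21.3 to 23.5). Both lay above at least 86.2% of all listed genes in each library. Prokr2 stood at an RPKM of 11.5 in NT (11.0 to 12) and 11.9 in ST (11.4 to 12.5). Prok2 had 4.51 in NT (3.84 to 5.28) and 3.74 in ST (3.04 to 4.52), in the middle of the distribution, with 56.9% and 53.9% of listed genes below it. Egfr and Clcf1 were the lowest of the 6. Egfr had 1.26 in NT (1.14 to 1.4) and 1.31 in ST (1.16 to 1.47). Clcf1 had 0.305 in NT (0.202 to 0.440) and 0.235 in ST (0.137 to 0.377), and 26.7% and 24.7% of listed genes were lower still.

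**Figure D1:**
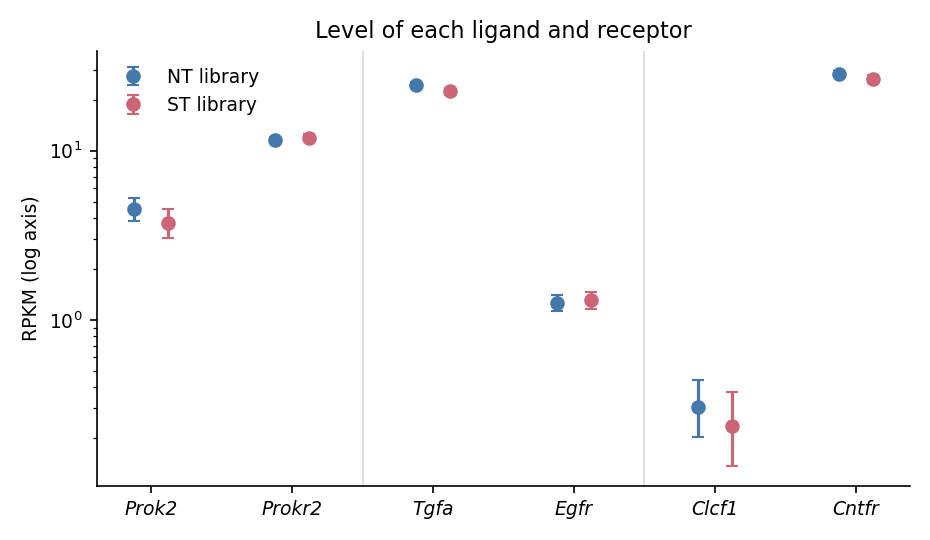
RPKM on a log axis for each ligand beside its receptor, in the NT and the ST library, with 95% exact Poisson intervals of the counts as bars. Each gene sits at nearly the same height in both libraries, and the genes differ from one another far more than the libraries do, from 0.235 for Clcf1 to 28.5 for Cntfr.

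The order Cntfr, Tgfa, Prokr2, Prok2, Egfr, Clcf1 was the same in both libraries. The smallest step was that from Cntfr to Tgfa, a ratio of RPKM of 1.16 in NT (1.09 to 1.23) and 1.18 in ST (1.10 to 1.27), and no step had a counting interval that held 1. With a single library per group the spread between animals is not known, so these intervals cover counting error only, and they treat each read as an independent molecule, which reads with no molecular identifier need not be. Ligand and receptor were unequal in every pair. Prokr2 exceeded Prok2 in RPKM by 2.55-fold in NT (2.17 to 3.01) and 3.18-fold in ST (2.62 to 3.93), 2 intervals that overlap. Tgfa exceeded Egfr by 19.5-fold in NT (17.4 to 21.8) and 17.1-fold in ST (15.1 to 19.5). Cntfr exceeded Clcf1 by 93.5-fold in NT (64.5 to 141) and 112-fold in ST (70.0 to 194).

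The NT library held 24790727 counts and the ST library 19476800. Between them, none of the 6 genes differed by 2-fold, and 2 of the 5 measured ones, Tgfa and Cntfr, had a counting interval wholly below 1. The background to this count is that 18.0% of all measured genes had an interval clear of 1, 10.2% below and 7.79% above. Among the 3656 genes with a mean normalised count between 1000 and 3000, a band that holds Tgfa, Cntfr and Prokr2, the shares were 11.3% and 9.82%. The 2-fold size was reached by 0.0209% of measured genes upwards and 0.230% downwards. The median log2 ratio of the 5 measured genes was -0.12, against -0.00 over all measured genes. Each of the 6 had an adjusted p-value of 1 in the authors' deposited table, with unadjusted p-values from 0.267 for Prok2 to 0.843 for Egfr. Without replicates, every difference below is one between these 2 libraries. In bulk tissue, fewer cells of a type and less RNA per cell cannot be told apart.

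**Figure D2:**
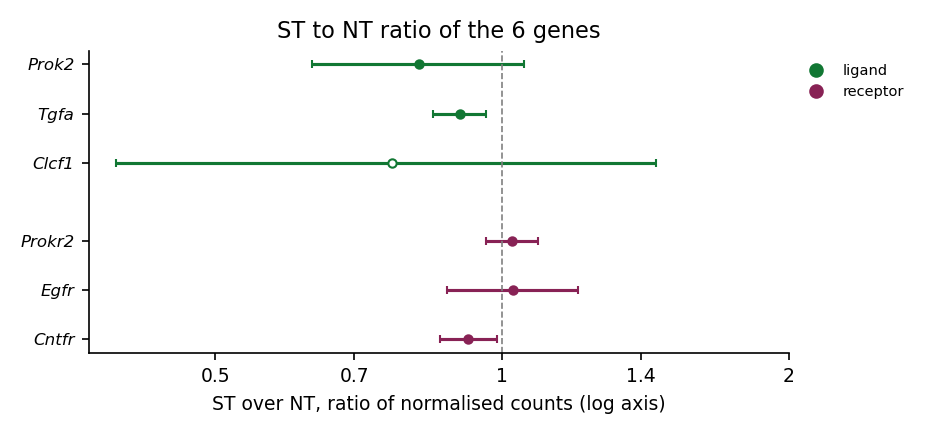
Ratio of normalised counts, ST over NT, on a log axis for the 3 ligands and 3 receptors, with 95% counting intervals; the open circle marks Clcf1, which is under the count minimum. The 3 ligands lie to the left of 1, and only the intervals of Tgfa and Cntfr stay clear of it.

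Tgfa, the best covered of the 3 ligands, was slightly lower in the ST library. It had 2293 counts in NT and 1641 in ST, which after scaling for depth are 2041 and 1844 normalised counts. The ratio of ST to NT was 0.903 (0.847 to 0.963), a log2 ratio of -0.15. Of all measured genes, 14.3% had a lower log2 ratio. In the authors' deposited table the fold change was 0.903 with p = 0.277. Its receptor gene Egfr was nearly level, with 354 counts in NT and 288 in ST, or 315 and 324 normalised counts, a ratio of 1.03 (0.876 to 1.2).

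Around this pair, the other ErbB genes varied little. The ligands of Egfr and its relatives are made as membrane precursors, and only 5 of the 10 others were measured. Hbegf, the heparin-binding ligand, was the best covered, with 578 counts in NT and 419 in ST and a ratio of 0.915 (0.805 to 1.04). The neuregulins bind Erbb3 and Erbb4 rather than Egfr. Nrg1 had 95 counts in both libraries and Nrg2 had 71 in both, which after scaling gave a ratio of 1.26 for each (0.940 to 1.70 and 0.895 to 1.78). Nrg3 was at 0.978 (0.800 to 1.19) and Nrg4 at 1.04 (0.764 to 1.41), so that 0 of the 5 had an interval clear of 1.

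The remaining ligands were scarce. Egf itself had 45 counts in NT and 50 in ST, with a ratio of 1.4 (0.919 to 2.15), and Btc, betacellulin, had 31 and 18, with a ratio of 0.733 (0.386 to 1.35). Areg, amphiregulin, had 1 count in NT and 7 in ST, a ratio of 8.83 whose interval runs from 1.14 to 398. Epgn had 2 counts in NT and 1 in ST, and Ereg 0 and 1. A count of 0 allows up to 3 counts, so no fold is given for Ereg. Per length, Tgfa was therefore the ErbB ligand with the highest level in both libraries, with Hbegf next at an RPKM of 10 in NT and 9.23 in ST.

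Among the receptors, Erbb4, a neuregulin receptor of neurons, had 1354 counts in NT and 1187 in ST. Its ratio was 1.11 (1.02 to 1.2), the only interval above 1 among the 44 measured pathway genes, and its counts include a share of reads divided with another feature. Erbb2, the receptor without a ligand of its own, was at 1.08 (0.813 to 1.43), and Erbb3 at 0.95 (0.808 to 1.12). The sheddases that release Tgfa and its relatives were level. Adam17, the main sheddase of Tgfa, had a ratio of 0.990 (0.882 to 1.11), Adam10 had 1.01 (0.956 to 1.08), and the iRhom gene Rhbdf1, whose product guides Adam17, had 1.02 (0.851 to 1.22).

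Downstream of Egfr, 13 of 14 adaptor and feedback genes had an interval that held 1, with a median log2 ratio of 0.02. The exception was Lrig1, a membrane protein that promotes the degradation of ErbB receptors, with 3968 counts in NT and 2921 in ST and a ratio of 0.929 (0.885 to 0.975). The adaptor Grb2 was at 1.01 (0.964 to 1.07), and Errfi1 and Dusp6, which are induced by receptor activity and feed back on it, at 1.03 (0.924 to 1.14) and 1.03 (0.862 to 1.24).

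Prok2 was lower in the ST library, by an amount that its depth does not resolve. It had 158.7 counts in NT and 103.5 in ST, or 141.5 and 115.7 normalised counts. The ratio was 0.818 (0.632 to 1.05), a log2 ratio of -0.29, and 4.89% of measured genes had a lower one. That share is over measured genes of all depths, and counting error spreads ratios more widely at low counts such as these. In the authors' deposited table the fold change was 0.818 with p = 0.267. The counts are not whole, and their fractions are made up by those of AC122929.1 (ENSMUSG00000085308), a gene on the opposite strand that starts inside Prok2 and spans 99675765 to 99682547 in mm9. The 2 spans overlap by 583 bases at the 5′ end of Prok2, and the E-box shown above lies within the span of AC122929.1. No source used here says whether the counting used strand, so which gene the divided reads came from cannot be told apart.

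The interval of Prok2 itself holds 1, and so does that of its overlapping neighbour, which was too scarce for a comparison. AC122929.1 had 23.3 counts in NT and 7.54 in ST, a ratio of 0.439 (0.170 to 1.02). It was under the count minimum set for a measured gene. Summed, both genes had 182 counts in NT and 111 in ST, whole numbers in each library. The ratio of the sums was 0.770 (0.602 to 0.980), which is a value of both genes together and not of Prok2. This sum was chosen after the values had been seen. In the GENCODE vM1 annotation the exons of the 2 genes share 0 bases, and the authors' own gene models were not used here.

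Prokr2 was level, at 2260 counts in NT and 1835 in ST, or 2012 and 2062 normalised counts. The ratio of 1.02 (0.963 to 1.09) had the smallest ratio of upper to lower bound among the 6 genes. The paralogs of both were nearly absent from this tissue: Prok1 had 4 counts in NT and 7 in ST (ratio 2.21, 0.561 to 10.3), and Prokr1 had 13 and 6 (ratio 0.583, 0.182 to 1.64). In both libraries, then, nearly all reads of the prokineticin pair came from Prok2 and Prokr2. Mrap2, an accessory protein that binds prokineticin receptors and melanocortin receptors, was at 1.06 (0.989 to 1.14). Of 6 measured genes of the prokineticin system besides the pair itself, only Gnaq had an interval clear of 1. Gnaq encodes the G protein alpha subunit that couples Prokr2 to phospholipase C, and had 4857 counts in NT and 3686 in ST with a log2 ratio of -0.06. The upper bound of its ratio lay just under 1. Gna11, which encodes a close relative of that subunit, was at 1.04 (0.990 to 1.10), Plcb4 at 1.03 (0.960 to 1.10) and the calcium release channel Itpr1 at 1.04 (0.949 to 1.14).

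Clcf1 was too scarce for a comparison. It had 28 counts in NT and 17 in ST, or 24.9 and 19.1 normalised counts, and a ratio of 0.766 with an interval from 0.394 to 1.45. The interval holds both no difference and a 2-fold lower level. Cntfr, the alpha receptor it binds, was abundant and slightly lower in ST. It had 1954 counts in NT and 1427 in ST, or 1739 and 1603 normalised counts. The ratio was 0.922 (0.860 to 0.987), a log2 ratio of -0.12, and 18.3% of measured genes had a lower one. The interval reached 1.01 at the 99% level and 1.02 with scaling to the neuron markers, so the difference is not clear of 1 under either. In the authors' deposited table the fold change was 0.922 with p = 0.393.

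The other cytokines that signal through gp130 were low throughout. Cntf, ciliary neurotrophic factor, which shares the Cntfr receptor with Clcf1, was the only one of 6 genes in this list that was measured, with 93.8 counts in NT and 71.3 in ST and a ratio of 0.953 (0.690 to 1.31). Its counts are fractional, as are those of Ctf1, cardiotrophin 1, with 38 in NT and 22.9 in ST. Lif, leukaemia inhibitory factor, had 35 counts in NT and 36 in ST. Il11 had 3 and 4, Il6 had 2 and 0, and Osm had 0 and 1, all at or near the limit of 3 counts that an empty value allows.

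Of the receptors, Il6st, the shared signalling chain gp130, was lower in ST together with Cntfr. It had 4127 counts in NT and 2980 in ST, with a ratio of 0.911 (0.869 to 0.956). Lifr, the chain that pairs with gp130 for Clcf1, was level at 1.01 (0.800 to 1.26), with 177 counts in NT and 141 in ST. Il11ra1 was at 1.03 (0.917 to 1.15), Osmr at 0.972 (0.676 to 1.39) and Il6ra at 0.836 (0.570 to 1.22). Downstream, 0 of 7 genes of the JAK-STAT pathway had an interval clear of 1, with a median log2 ratio of 0.02. Stat3, the main transcription factor activated through gp130, was at 0.945 (0.887 to 1.01), its target and inhibitor Socs3 at 0.802 (0.572 to 1.12), and Jak1 and Jak2 both at 1.02 (0.969 to 1.08 and 0.95 to 1.10).

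**Figure D3:**
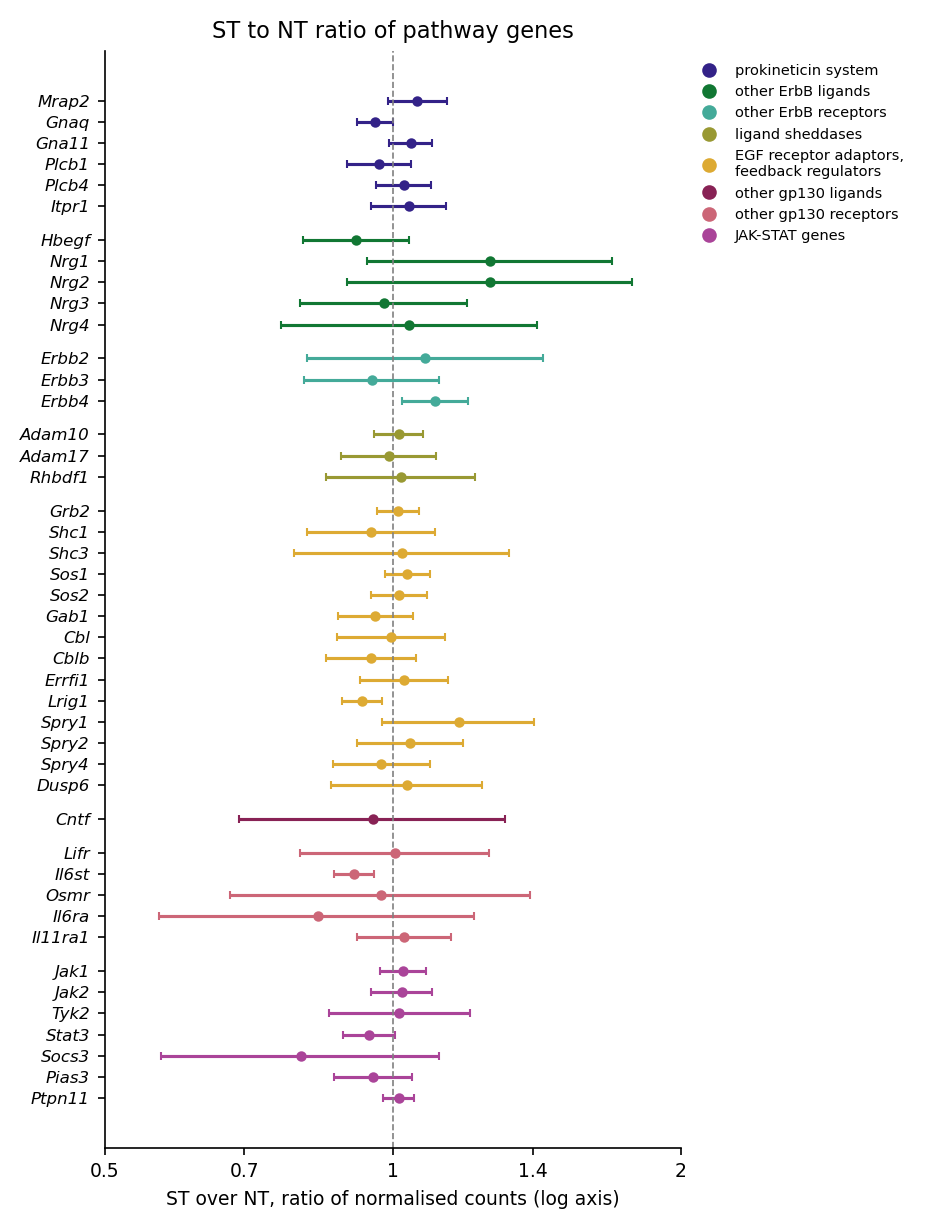
Ratio of normalised counts, ST over NT, on a log axis for the 44 measured genes of the 3 pathways, without the 6 ligand and receptor genes, coloured by role, with 95% counting intervals. Most intervals cross 1; Erbb4 lies above it, and Gnaq, Lrig1 and Il6st below.

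Of the 57 genes listed for the 3 pathways besides the 6, not all of which are named here, 44 were measured. Of these 44, 1 had an interval above 1 and 3 below, and none reached 2-fold. Their median log2 ratio was 0.02. Against the background shares of 7.79% above and 10.2% below, these counts are not larger than those of measured genes in general. With scaling that set the neuron marker median to 0, chosen after the values had been seen, 7 of the 44 were above 1 and 1 below, and the shares over all measured genes were then 18.5% and 5.07%.

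**Figure D4:**
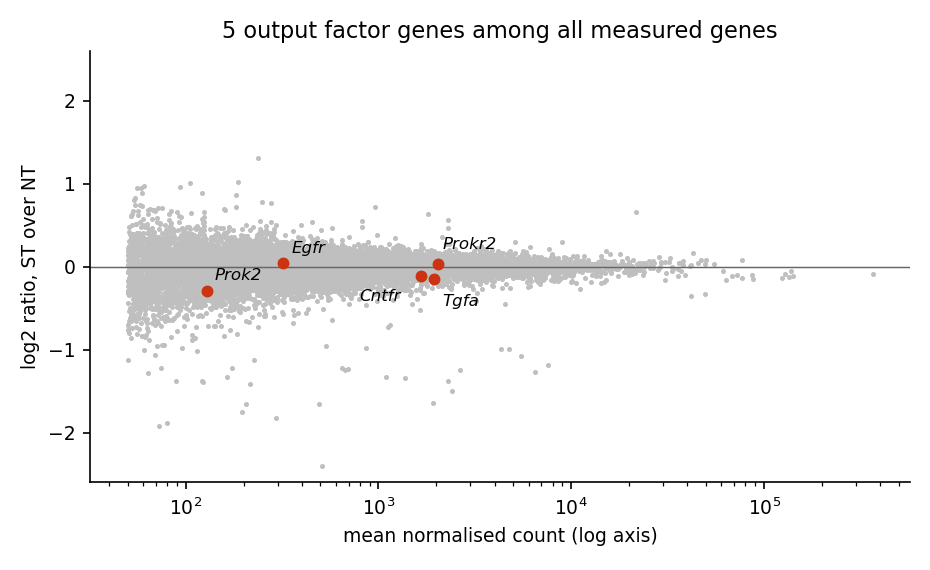
The log2 ratio of ST to NT against the mean normalised count on a log axis, for all 14343 measured genes in grey and for the 5 measured ligand and receptor genes in red; 1 gene outside the plotted range is not drawn. The 5 red points lie inside the grey cloud at their depth, with Prok2 at -0.29 the lowest of them.

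Genes known to be driven through E-boxes, as Prok2 is, did not share a direction. Of 11 such genes, all measured, 2 had an interval above 1 and 1 below, with a median log2 ratio of -0.01. The shares over all measured genes were 7.79% above and 10.2% below. Of the 5 with CACGTG in the promoter window, the period gene Per1 had a log2 ratio of 0.21 and Ciart, a clock repressor listed in the table as Gm129, 0.14. The others were Cry1, a cryptochrome, at -0.01, the bZIP factor Tef at -0.03 and the repressor Bhlhe41 at -0.05. The interval of Prok2, 0.632 to 1.05, overlaps those of all but Per1, which runs from 1.10 to 1.21. Ciart, with 0.933 to 1.29, holds 1. Nr1d1, at 0.16, and the bZIP factor Dbp, at -0.16, were the other 2 with an interval clear of 1.

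Set beside 26 other secreted signals of brain tissue, Tgfa was at the level of Grp, gastrin-releasing peptide of ventral SCN neurons, which had an RPKM of 23.7 in NT and 22.5 in ST, and of the growth factor Fgf1, with 23.3 and 21.3. These were the nearest genes by distance of log2(RPKM + 0.1) over the 2 libraries, which is a likeness of level only. Fgf1 had the same log2 ratio as Tgfa, -0.15 (fold 0.852 to 0.959). Nearest to Prok2 were the chemokine Cxcl12, with an RPKM of 4.55 in NT and 3.52 in ST, and the opioid precursor Pdyn, with 7.77 and 7.00. Cxcl12 had a log2 ratio of -0.38 (fold 0.690 to 0.853). Nearest to Clcf1 were Ntf3 and Igf1, with 0.121 and 0.159 in NT and 0.115 and 0.0830 in ST. Ntf3 rests on 4 counts in NT and 3 in ST. The distances of these 2 from Clcf1 were 1.08 and 1.09 log2 units, and that of Pdyn from Prok2 was 1.17, so none of the 3 is a close match. By contrast, Cxcl12 was 0.0879 from Prok2, and Grp and Fgf1 were 0.0553 and 0.108 from Tgfa. Of 22 measured signals, 6 had an interval above 1, led by the peptides Cck at 0.54 and Gal at 0.48. Another 7 lay below 1, led by Cxcl12 and the heparin-binding growth factor Ptn at -0.29. The median log2 ratio of the 22 was -0.08. The shares over all measured genes were 7.79% above and 10.2% below, and intervals are narrower for genes with more counts.

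SCN tissue was present in both libraries by its markers: all 11 SCN neuron markers were measured, and their summed RPKM was 1002 in NT and 1072 in ST. Most of each sum came from Avp, and without Avp the sum was lower in ST than in NT. Avp, vasopressin, had an RPKM of 563 in NT and 656 in ST, and Vip, a peptide of the ventral SCN, 197 and 168. In bulk tissue the cells that gave the Avp reads are not known, and they need not all be SCN neurons. SCN markers had a median log2 ratio of -0.06, with 4 intervals above 1 and 3 below. Over all measured genes, 7.79% were above and 10.2% below. The 7 general neuron markers, led by Gad2 and Tubb3, had a median of -0.05 and a range from -0.11 to 0.04. The log2 ratios of Tgfa and Cntfr, -0.15 and -0.12, lie just below that range, that of Prok2, -0.29, lies further below it, and those of Prokr2 and Egfr, both 0.04, at its upper end.

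Of 33 measured markers of other cells, 29 were lower in the ST library and 4 higher, where 7295 of all 14343 measured genes were lower. Tgfa, Cntfr and Prok2 were also lower, though the interval of Prok2 holds 1, and Prokr2 and Egfr were not. The 5 oligodendrocyte markers, among them Mbp and Cnp, were all below 1, with a summed RPKM of 649 in NT and 541 in ST and a median log2 ratio of -0.25. The 6 endothelial and mural markers, among them Cldn5 and Slco1a4, had sums of 46.8 and 36.8, a median of -0.33 and 5 intervals below 1. Those of microglia, also 6, with C1qa and Csf1r the most abundant, had sums of 84.0 and 69.6, a median of -0.30 and 5 intervals below 1. The 5 meningeal genes, among them Igf2 and Dcn, had sums of 20.8 and 11.7, a median of -0.94 and 5 intervals below 1. Astrocyte markers, 8 in all, had sums of 947 and 906 and a median of -0.11, with Gfap at -0.20 and Aldoc at 0.04, 6 intervals below 1 and 1 above. Of 4 ependymal and tanycyte genes, 3 were measured, with Foxj1 at 0.02, Dynlrb2 at 0.23 and Col23a1 at -0.37, the last with the only interval clear of 1, 0.773 (0.610 to 0.975). Of all measured genes, 10.2% had an interval below 1 and 7.79% above. None of the marker genes was at 0 in either library. The part of these cells in the lower values of Tgfa, Cntfr and Prok2 was not tested.

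**Figure D5:**
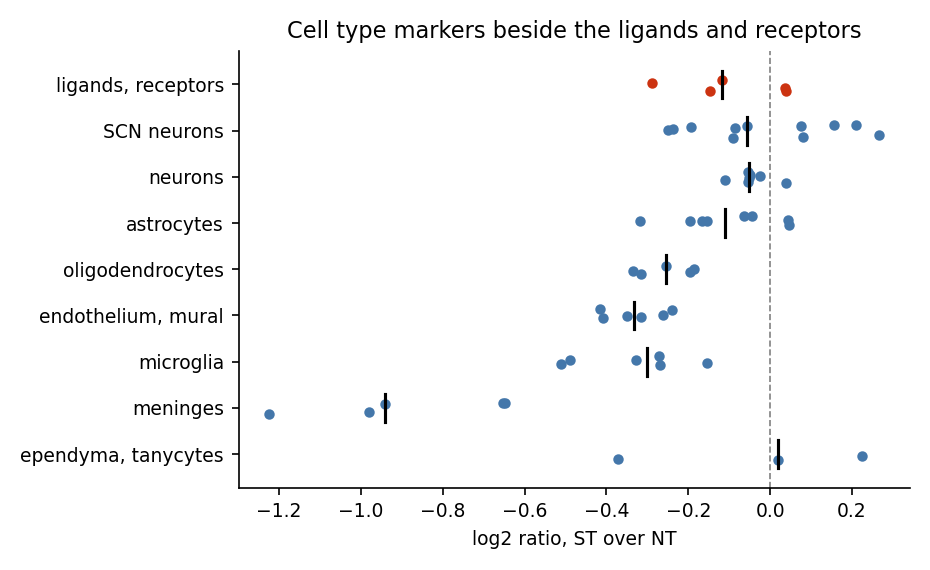
The log2 ratio of ST to NT for the 5 measured ligand and receptor genes (red) and for measured markers of each cell type (blue, 1 point per gene, spread vertically only for legibility), with the median of each list as a black bar. The red points span -0.29 to 0.04; markers of oligodendrocytes, endothelium, microglia and meninges all lie left of 0.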

How the data were processed

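The deposited table gives, per the file headers, read counts (estimated counts, since 45.2% of genes have a fraction in at least 1 library, with a tolerance of 1e-06), RPKM and RPM values for each library. The authors' deposited comparison gives a fold change ratio, its log2 and p-values for ST over NT. DESeq, TopHat 1.2, CASAVA 1.8.2 and mm9 are listed per the submitters' processing notes, with no counter or strand setting stated. Another 3 columns of mean values were not used, as their names fit no single sample. Total counts were 24790727 in NT and 19476800 in ST.

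Fractional counts were rounded. Scaling over the whole table used the median of ratios, with size factors of 1.12 (NT) and 0.890 (ST). Log2 ratios used a pseudocount of 0.5, folds none. The 95% interval was obtained from the exact (Clopper-Pearson) bounds on ST counts as a share of both libraries' counts, rescaled, and for RPKM the exact Poisson interval; both cover counting error only. With 1 library per group no test was run and no p-value computed. On simulated Poisson counts for this comparison, 95.5% of intervals held the true ratio and 4.50% of unchanged genes had one clear of 1. The simulated counts held no spread between animals or libraries, so these shares check the calculation and give no rate of false calls in the data.

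The genes and lists were chosen with earlier results of these data known. Some genes of the lists are not reported here and enter no count of a list. The text names all 6 genes, every ErbB and gp130 ligand and receptor, up to 4 genes of each other list with the largest log2 ratio and an interval clear of 1, the 2 most abundant markers of each cell type, and the 2 signals nearest in level to each ligand. Further pathway and clock genes and Col23a1 were named for their role, promoter motif or interval after their values had been seen. Symbols absent from the table were looked up in RefSeq synonyms or by Ensembl identifier. Alternatives were total-count and TMM scaling (edgeR 4.0.16), a pseudocount of 5, RPKM ratios, filters of 10 and 200, a 99% interval, whole counts only and GENCODE vM1 exon lengths. Python 3.11.15 and scipy 1.17.1 were used.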

Additional observations from a re-analysis of the deposited data

How the results depend on the processing

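No paired analysis was possible because NT and ST have 1 library each, which also leaves no replicate to omit. All 6 ratios kept their direction and stayed inside their counting interval under the other scalings, a pseudocount of 5 and RPKM ratios. The number of ligand and receptor genes with an interval below 1 went from 2 to 1 with a 99% interval, where Cntfr reached 1.01 and Tgfa 0.982 at the upper bound. It was also 1 when scaling set the neuron marker median to 0, a shift of 0.05 on the log2 scale chosen after seeing the data, with upper bounds of 0.997 for Tgfa and 1.02 for Cntfr. Pathway genes above 1 were then 7 in place of 1, and those below 1 were 1 in place of 3. The number above 1 was 0 with the 99% interval, where the lower bound of Erbb4 was 0.998, and 0 with whole counts only, since Erbb4 shares reads. Gnaq was no longer below 1 with total-count scaling, TMM scaling or the 99% interval, which left 2. Levels with GENCODE vM1 exon lengths stayed within the counting intervals, at 4.23 and 3.51 for Prok2 in NT and ST. Depth limits Clcf1 most, which a filter of 10 keeps and whose interval runs from 0.394 to 1.45.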
